A study of Mus musculus with 89 samples.

Results

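The Erk pathway response genes are Dusp4, Dusp6, Spry2, Spry4, Spred1, Etv4, Etv5, Egr1, Fos and Ier3, 10 of the 54146 genes listed in the RNA-seq tables of mouse embryonic stem cells (ESCs) cultured in 2 media. They were taken by symbol, and each of the 10 matched 1 row. In ESCs, Fgf4 made by the cells themselves acts through Fgf receptors, Ras, Raf and Mek to switch on the kinases Erk1 and Erk2, which enter the nucleus and phosphorylate transcription factors. Genes induced by this cascade include immediate-early transcription factors (Egr1, Fos), Pea3-type Ets factors (Etv4, Etv5), and inhibitors that act back on the cascade: Dusp4 and Dusp6 are phosphatases that remove phosphate from Erk, and Spry2, Spry4 and Spred1 block the steps between receptor and Raf. Erk activity prepares ESCs for differentiation, and medium with 2i blocks it.

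The study asked how the orphan nuclear receptors Esrrb and Nr5a2 together hold ESCs in the naive state. RNA was measured in 20 libraries, of which 8 come from FCS/LIF (4 states, 2 replicates each) and 12 from 2i/LIF (the same states, 3 replicates each). FCS/LIF holds foetal calf serum and the cytokine LIF. 2i/LIF holds LIF, no serum, the Mek inhibitor PD0325901 and the Gsk3 inhibitor CHIR99021.

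The cells of all 8 groups are EKOiE cells, in which the endogenous Esrrb gene is inactivated and a transgene makes Esrrb while doxycycline (Dox) is given, so no group is wild type. The state +E+N is EKOiE given Dox (1 µg/ml) throughout, and −E the same line left for 2 days without it. The state −N is the line EKOiE NrKO given Dox, and −E−N that line left for 2 days without Dox. In NrKO cells both alleles of Nr5a2 are disrupted in exon 4, and the labels do not give the clone. A difference between −N and +E+N is therefore also a difference between lines, and the loss of Nr5a2 and the change of line cannot be told apart. Medium, serum, the Gsk3 inhibitor, and the batch of culture and sequencing cannot be told apart either, so a difference between 2i/LIF and FCS/LIF belongs to all of these at once. The labels do not say whether replicates were separate cultures, while the legends of the study describe them as independent experiments. P-values measure the spread between these libraries.

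An FCS/LIF library held 36514172 to 45443379 counts and a 2i/LIF library 26653035 to 32526534. Levels are given as CPM, a gene's count as a share of its library's total times a fixed factor, scaled over all 20 libraries. Esrrb was at 271 and 353 CPM in FCS/LIF +E+N and at 65.1 and 74.2 CPM in −E, and at 28.9 and 31.3 CPM in −E−N. In 2i/LIF it was between 515 and 609 CPM in +E+N, between 380 and 441 CPM in −E, and between 104 and 171 CPM in −E−N. Esrrb RNA was thus 2.18 lower on the log2 scale in −E than in +E+N in FCS/LIF (log2 fold change −2.18, adjusted p = 2.75e-05), while in 2i/LIF the difference was −0.46 (adjusted p = 0.116) and did not pass. A deletion within 1 exon does not stop the gene from being counted, so the Nr5a2 count checks nothing about the NrKO lines. The 6 markers of pluripotent cells summed to between 1324 and 3032 TPM, a unit per length of transcript, in every library, and the 5 fibroblast markers to at most 7.44 TPM.

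In the text, a gene is called when its adjusted p is under 0.01 and its fold change is over 1.5, by the quasi-likelihood test of edgeR with Benjamini-Hochberg adjustment over all genes tested. Differences between differences were called on the adjusted p alone. "Rose" and "fell" are used of called genes.

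Promoters of 6 of the 10 genes were searched, taken from the RefSeq sequences on GRCm38.p6. Each runs from 250 bases before to 50 bases after a transcription start. The 3 shown were chosen because their genes represent the behaviours described next. Fos and Dusp6 were far lower in 2i/LIF, and Etv5 was not called between the media in any state. Capitals mark matches, on either strand, to the core of the cAMP response element (TGACGT), an Ets core (GGAAGT) and a TATA box (TATAAA), which do not overlap here. All are written 5′ to 3′ on the strand of the gene, which is plus for Fos and Dusp6 and minus for Etv5.
Fos, chr12:85473640-85473939: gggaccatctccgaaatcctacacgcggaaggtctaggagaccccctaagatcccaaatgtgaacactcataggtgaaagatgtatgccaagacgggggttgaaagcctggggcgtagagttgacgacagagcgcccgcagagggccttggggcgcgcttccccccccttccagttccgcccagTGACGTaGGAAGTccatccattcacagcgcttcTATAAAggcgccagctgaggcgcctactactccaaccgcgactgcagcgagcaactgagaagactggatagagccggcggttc
Dusp6, chr10:99262981-99263280: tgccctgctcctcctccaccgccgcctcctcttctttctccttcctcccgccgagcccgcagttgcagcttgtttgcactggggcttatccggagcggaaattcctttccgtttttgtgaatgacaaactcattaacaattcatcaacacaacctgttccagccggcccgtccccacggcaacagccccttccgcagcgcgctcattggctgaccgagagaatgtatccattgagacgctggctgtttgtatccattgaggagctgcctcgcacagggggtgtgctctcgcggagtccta
Etv5, chr16:22438319-22438618: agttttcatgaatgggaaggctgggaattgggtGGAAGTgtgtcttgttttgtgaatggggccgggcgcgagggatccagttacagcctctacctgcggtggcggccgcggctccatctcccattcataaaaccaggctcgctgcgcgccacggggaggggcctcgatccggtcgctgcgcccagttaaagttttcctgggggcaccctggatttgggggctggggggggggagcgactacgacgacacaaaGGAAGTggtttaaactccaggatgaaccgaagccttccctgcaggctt

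In the Fos window TGACGT starts at position −66 from the transcription start, the Ets core at −59 and the TATA box at −33. The Etv5 window shown, the one of its 2 that has a match, holds 2 Ets cores, at −217 and 3. The other Etv5 window and those of Dusp6, Spred1, Spry2 and Ier3 hold no match. Of 32851 promoters of this length, 7.51% hold TGACGT, 23.8% the Ets core and 13.6% the TATA box. Longer motifs, searched first, had no match in the 7 windows of the 6 genes: the serum response element (CArG box, in 1.63% of promoters), TGACGTCA (1.79%), TGACTCA (5.2%), CCGGAAGT (3.89%), the Esrrb motif TCAAGGTCA (0.423%) and the Nr5a2 motif TCAAGGCCA (0.591%). The 3 shorter motifs were added after that. No match says only that these letters are not in the window. No entry was matched for Dusp4 and Etv4, and the promoters of Egr1 and Spry4 were not searched. The matches therefore say nothing about these genes, among them Egr1, which had the largest difference between media.

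Per length of transcript, Etv5 was the highest of the 10 genes in both media, at 171 ± 17.1 TPM in FCS/LIF +E+N (SD, n = 2) and 139 ± 5.03 TPM in 2i/LIF +E+N (SD, n = 3). Etv4 followed, at 40.4 ± 0.983 and 101 ± 5.19 TPM. At the other end, Fos was the lowest in FCS/LIF +E+N (2.69 ± 0.120 TPM), and in 2i/LIF +E+N Egr1 (0.127 ± 0.0503 TPM), Dusp4 (0.317 ± 0.0808 TPM), Fos (0.350 ± 0.0872 TPM) and Spry4 (0.887 ± 0.500 TPM) were all under 1 TPM. The levels of Dusp4, Dusp6, Spry4, Egr1 and Fos in the 12 libraries of 2i/LIF lay below those of all 8 libraries of FCS/LIF, which holds for 15.3% of the 16147 genes tested over 20 libraries, and the other 5 overlapped.

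**Figure D1:**
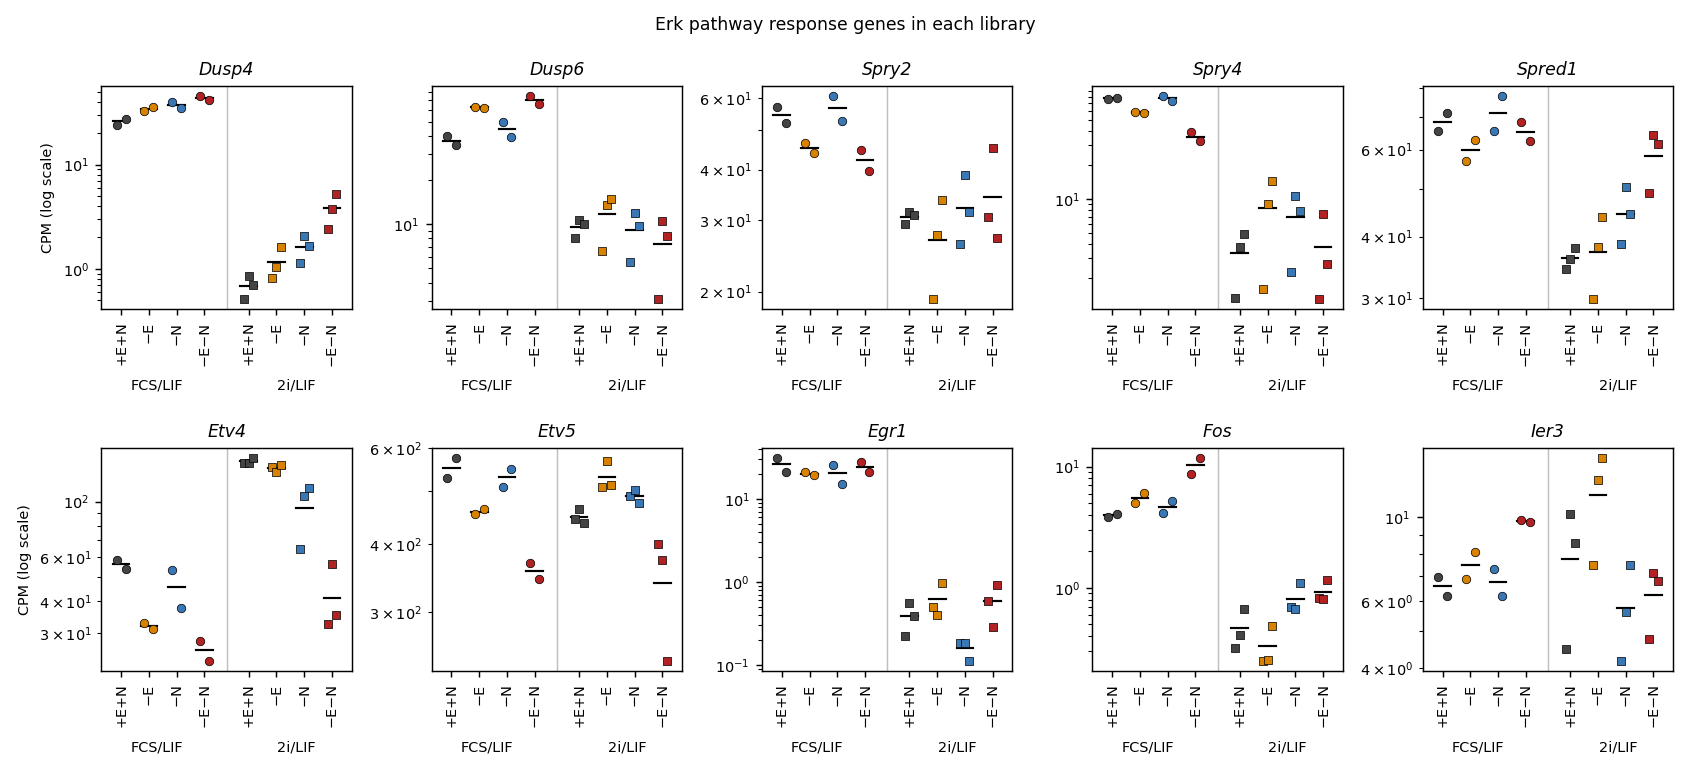
CPM of the 10 Erk pathway response genes in each library (points, log axis) of the 4 states in FCS/LIF (circles, n = 2) and 2i/LIF (squares, n = 3), with bars at the group means. In Dusp4, Dusp6, Spry4, Egr1 and Fos all squares lie under all circles, while Etv4 is higher in 2i/LIF and Etv5 and Ier3 overlap.

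Between the media, 8 of the 10 genes were called in +E+N, 7 lower and 1 higher in 2i/LIF, against 34.7% of all genes tested (17.5% lower and 17.2% higher). The median log2 fold change of the 10 genes was −1.44, and that of all genes was 0.00917. In every state Egr1 is counted among the lower genes and in the median, though it passed the count filter only through FCS/LIF. In −E, 7 were again lower and 1 higher, beside 38.8% of all genes (19.8% lower, 18.9% higher), and the median was −1.59. The same counts were found for −N, beside 31.6% of all genes (16.6% lower, 15.0% higher), with a median of −1.56. In −E−N, 5 were lower and 0 higher by edgeR, beside 35.0% of all genes (18.9% lower, 16.1% higher), with 1 at an unadjusted p under 0.05 and higher by DESeq2 as well (Etv4), and a median of −1.95. The markers of primed epiblast also differed between media in +E+N, with sums of 28.7 to 35.98 TPM in 2i/LIF and 226 to 232 TPM in FCS/LIF (4 of 4 called lower), as did those of primitive endoderm, with 1.63 to 2.80 and 9.92 to 14.3 TPM (5 of 5 called lower). In the other 3 states all 4 primed epiblast markers and 4 or 5 of the 5 primitive endoderm markers were called lower. Their part in the differences of the 10 genes was not tested. In bulk RNA, fewer cells that express a gene and less RNA per cell cannot be told apart.

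Dusp4 (ENSMUSG00000031530, chromosome 8, 34807297 to 34819894) is a nuclear phosphatase of Erk and had the second largest gap of the 10 genes in +E+N. In FCS/LIF it was at 24.2 and 27.7 CPM (+E+N), 32.7 and 36.2 (−E), 35.3 and 40.3 (−N) and 41.8 and 45.7 (−E−N). In 2i/LIF it was at 0.514, 0.697 and 0.855 CPM (+E+N), 0.822, 1.04 and 1.63 (−E), 1.13, 1.65 and 2.07 (−N) and 2.40, 3.75 and 5.24 (−E−N). The order of the 4 states was thus the same in both media, with neighbouring states close or overlapping. Dusp4 was 37.9-fold lower in 2i/LIF in +E+N (log2 fold change −5.24, SE 0.291, adjusted p = 2.36e-10), 29.4-fold in −E, 23.4-fold in −N and 11.5-fold in −E−N. A 2i/LIF +E+N library held only 16 to 23 counts of it.

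Dusp6 (ENSMUSG00000019960, chromosome 10, 99263231 to 99267489), the cytoplasmic phosphatase of Erk, had a smaller gap. In FCS/LIF it was at 34.6 and 39.7 CPM (+E+N), 62.4 and 62.8 (−E), 39.3 and 49.5 (−N) and 65.9 and 74.9 (−E−N). In 2i/LIF the values were 7.996, 9.96 and 10.7 CPM (+E+N), 6.54, 13.6 and 14.9 (−E), 5.48, 9.70 and 12 (−N) and 3.09, 8.32 and 10.5 (−E−N). The 2 states without Dox stood above the 2 with Dox in FCS/LIF, and the 4 states overlapped in 2i/LIF. Dusp6 was lower in 2i/LIF by 3.90-fold in +E+N (log2 fold change −1.96, SE 0.356, adjusted p = 0.000154), 5.36-fold in −E, 4.90-fold in −N and 9.65-fold in −E−N.

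Among the inhibitors between receptor and Raf, Spry4 (ENSMUSG00000024427, chromosome 18) had the widest spread. In FCS/LIF it was at 76.9 and 78.3 CPM (+E+N), 57.8 and 58.6 (−E), 73.5 and 81.0 (−N) and 32.4 and 38.8 (−E−N). The 2i/LIF libraries numbered 1, 2 and 3 held 1.35, 3.79 and 4.95 CPM (+E+N), 1.61, 9.07 and 14.5 (−E), 2.25, 10.6 and 7.91 (−N) and 1.32, 7.38 and 2.67 (−E−N). The library numbered 1 was the lowest in each state. Spry4 was lower in 2i/LIF in all states, by 23.3-fold in +E+N (log2 fold change −4.54, SE 0.664, adjusted p = 1.73e-05) and by between 6.91-fold and 11.2-fold in the others.

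Spry2 (ENSMUSG00000022114, chromosome 14, 105891947 to 105896819) and Spred1 (ENSMUSG00000027351, chromosome 2, 117121374 to 117182279) act on the same steps and moved far less. Spry2 was between 39.7 and 60.7 CPM in the 8 libraries of FCS/LIF (median 49.3) and between 19.2 and 45.3 CPM in the 12 of 2i/LIF (median 30.7). Spred1 ranged from 57.0 to 77.0 CPM in FCS/LIF (median 65.4) and from 29.9 to 64.1 CPM in 2i/LIF (median 41.2). The ranges overlapped for both. In +E+N they were lower in 2i/LIF by 1.78-fold (Spry2, log2 fold change −0.83, SE 0.205, adjusted p = 0.00208) and 1.89-fold (Spred1, −0.92, SE 0.141, adjusted p = 2.86e-05). In −E−N neither was called, with differences of −0.30 (95% CI −0.74 to 0.14) for Spry2 and −0.16 (95% CI −0.46 to 0.13) for Spred1. The call of Spry2 was lost in +E+N without FCS/LIF +E+N replicate 1 (adjusted p = 0.0193), in −E without either FCS/LIF −E library or 2i/LIF −E replicate 1 or 2 (0.0103 to 0.0326), and in −N without replicate 1 of −N in either medium (0.0131 and 0.0290). That of Spred1 was lost in −E without 2i/LIF −E replicate 1 (−0.58, under the fold limit) and in −N without FCS/LIF −N replicate 2 (−0.56, adjusted p = 0.0159).

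The Pea3-type factors Etv4 (ENSMUSG00000017724, chromosome 11, 101769742 to 101785371) and Etv5 (ENSMUSG00000013089, chromosome 16, 22381309 to 22439719) were not called lower in 2i/LIF in any state. Etv4 was at 53.8 and 58.7 CPM (+E+N), 31.0 and 32.8 (−E), 37.6 and 53.6 (−N) and 23.2 and 27.9 (−E−N) in FCS/LIF. In 2i/LIF it was at 142, 143 and 150 CPM (+E+N), 131, 138 and 139 (−E), 64.9, 105 and 113 (−N) and 32.4, 35.3 and 56.6 (−E−N). Each state was higher in 2i/LIF than in FCS/LIF, with no overlap of libraries within a state. The difference passed in +E+N (2.58-fold, log2 fold change 1.37, SE 0.225, adjusted p = 5.95e-05), −E (4.27-fold) and −N (2.07-fold, lost without FCS/LIF −N replicate 2, adjusted p = 0.0238), and not in −E−N (0.70 on the log2 scale, with an adjusted p = 0.0142), where it passed without 2i/LIF −N replicate 1, −E−N replicate 1 or −E−N replicate 3 (adjusted p from 0.00416 to 0.00987).

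Etv5 was between 346 and 576 CPM in FCS/LIF (median 487) and between 245 and 568 CPM in 2i/LIF (median 469). It was not called between media in any state, and the log2 differences lay between −0.30 in +E+N (95% CI −0.58 to −0.021) and 0.21 in −E (95% CI −0.07 to 0.49). These intervals leave out a fold change of 1.5 in either direction. Etv4 and Etv5 belong to the same subfamily of Ets factors.

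Egr1 (ENSMUSG00000038418, chromosome 18) and Fos (ENSMUSG00000021250, chromosome 12, 85473890 to 85477273) are immediate-early genes, transcribed within minutes of Erk activation without new protein. Egr1 had the largest difference between media among the 10 genes. It entered the fit of all 20 libraries only through its FCS/LIF groups, where it was high. Its test between media therefore does not stand as support for lower levels in 2i/LIF, and its values are a description. Egr1 was between 14.9 and 31.4 CPM in FCS/LIF (median 20.9) and between 0.112 and 0.970 CPM in 2i/LIF (median 0.389), where a library held 3 to 28 counts. Egr1 was 67.7-fold lower in 2i/LIF in +E+N (log2 fold change −6.08, SE 0.379, adjusted p = 8.71e-10), and its log2 difference in the other states lay between −4.99 in −E and −6.96 in −N.

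Fos was at 3.87 and 4.08 CPM (+E+N), 5.05 and 6.01 (−E), 4.16 and 5.19 (−N) and 8.76 and 11.9 (−E−N) in FCS/LIF. In 2i/LIF it was at 0.321, 0.409 and 0.662 CPM (+E+N), 0.250, 0.252 and 0.485 (−E), 0.665, 0.690 and 1.09 (−N) and 0.813, 0.822 and 1.15 (−E−N), from 7 to 34 counts a library. Only in the −E−N state of FCS/LIF did Fos pass 8 CPM. It was lower in 2i/LIF by 8.54-fold in +E+N (log2 fold change −3.09, SE 0.302, adjusted p = 1.78e-07), 16.6-fold in −E, 5.74-fold in −N and 11.1-fold in −E−N.

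Ier3 (ENSMUSG00000003541, chromosome 17, 35821684 to 35822923), an early response gene that is also a substrate of Erk, was not called between media. It was between 6.19 and 9.83 CPM in FCS/LIF (median 7.12) and between 4.18 and 14.4 CPM in 2i/LIF (median 7.30). The log2 difference was 0.24 in +E+N (95% CI −0.42 to 0.89), and −0.65 in −E−N (95% CI −1.30 to −0.0090, adjusted p = 0.0747).

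**Figure D2:**
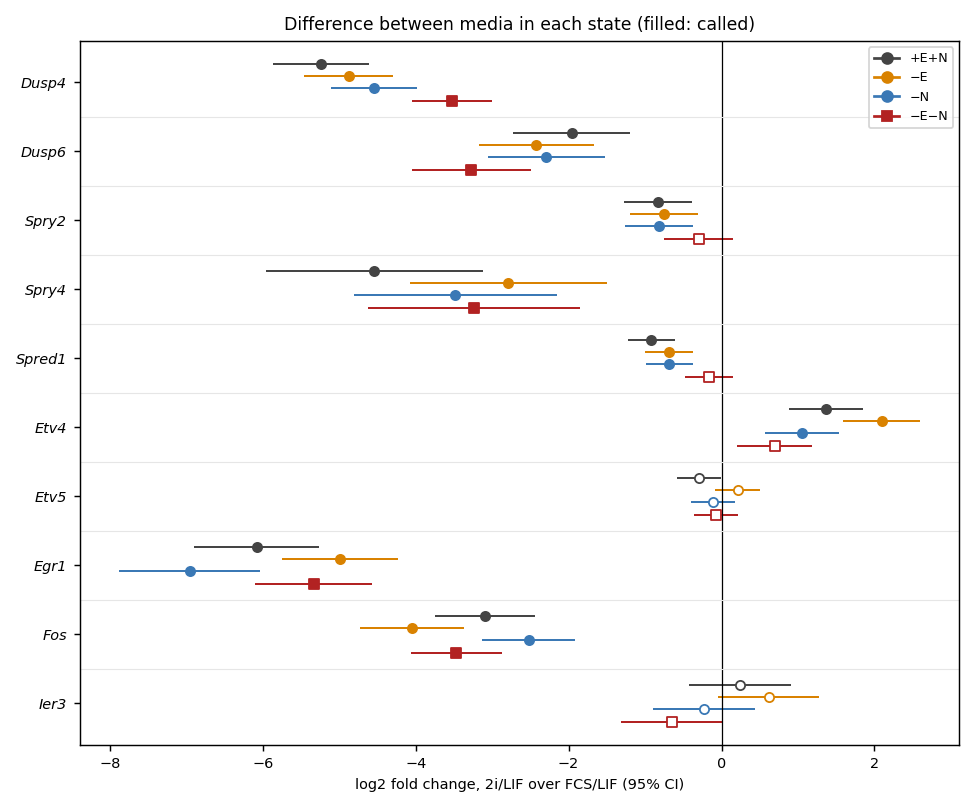
Log2 fold change of 2i/LIF over FCS/LIF (x axis) for each Erk pathway response gene in the 4 states, with 95% confidence intervals; filled points were called. Egr1 lies furthest to the left in each state, between −6.96 and −4.99, and Dusp4, Dusp6, Spry4 and Fos were also called lower in all 4. Etv4 lies to the right of 0, and Etv5 and Ier3 were not called in any state.

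With Esrrb depleted alone in FCS/LIF (−E against +E+N), 2 of the 10 genes were called, and 5.76% of all genes (3.23% higher, 2.53% lower). Dusp6 rose 1.67-fold (log2 fold change 0.74, SE 0.114, adjusted p = 0.00284), and Etv4 fell 1.78-fold (−0.84, SE 0.150, adjusted p = 0.00558). Spry4 had an adjusted p of 0.00786 at a change of −0.43, under the fold limit. The median of the 10 was −0.25, beside −0.00251 for all genes. Both calls rest on few libraries: Etv4 did not pass without either library of −E, +E+N or −E−N (adjusted p from 0.0116 to 0.0653), and Dusp6 did not without either library of −E or without +E+N replicate 2 (0.0152 to 0.0305). The changes themselves stayed between −0.90 and −0.77 for Etv4 and between 0.64 and 0.84 for Dusp6 with 1 library left out. By limma on log2(TPM + 1) the call of Etv4 was lost too (−0.65, adjusted p = 0.0267). In the same comparison the primed epiblast markers summed to 370 to 371 TPM in −E and 226 to 232 TPM in +E+N (2 of 4 called higher), the neural markers to 28.1 to 29.3 and 13.4 to 13.6 TPM (1 of 4 higher), the primitive endoderm markers to 21.9 to 22.9 and 9.92 to 14.3 TPM (1 of 5 higher), and the pluripotency markers to 2234 to 2319 and 2511 to 2603 TPM (2 of 6 lower). Their part was not tested.

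In −N against +E+N in FCS/LIF, 0 of the 10 genes were called by edgeR, and 0.173% of all genes. Of the 10 genes, only Dusp4 had an unadjusted p under 0.05 by edgeR (log2 fold change 0.52, SE 0.0980, adjusted p = 0.0383). DESeq2 also called 0 of the 10, beside 264 of all 15636 genes.

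With both factors missing in FCS/LIF (−E−N against +E+N), 6 of the 10 genes were called, 3 in each direction, against 18.8% of all genes (12.4% higher, 6.40% lower). Fos rose 2.56-fold (log2 fold change 1.36, SE 0.191, adjusted p = 0.000551), Dusp6 1.87-fold (0.90, SE 0.114, adjusted p = 0.000315) and Dusp4 1.66-fold (0.73, SE 0.0981, adjusted p = 0.000429). Etv4 fell 2.23-fold (−1.16, SE 0.153, adjusted p = 0.000398), Spry4 fell 2.21-fold (−1.14, SE 0.0859, adjusted p = 1.95e-05) and Etv5 fell 1.56-fold (−0.64, SE 0.0642, adjusted p = 8.54e-05). Genes that act back on Erk were thus on both sides, with both phosphatases higher and Spry4 lower, and both Pea3-type factors fell while an immediate-early gene rose.

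The other 4 genes were not called in this comparison. Spry2 was at −0.39 (adjusted p = 0.00705), under the fold limit, and Ier3 at 0.56 (adjusted p = 0.0103). Spred1 was at −0.08 (95% CI −0.29 to 0.12) and Egr1 at −0.12 (95% CI −0.71 to 0.47), so that the interval of Egr1 still holds a change of 1.5-fold down. The median of the 10 was −0.10, and that of all genes 0. Without +E+N replicate 2, Etv5 was at −0.58, just under the fold limit, and no other of the 6 calls was lost when a library was left out. By limma on log2(TPM + 1), Etv5 was also under the fold limit (−0.48, adjusted p = 0.00375), and Ier3 passed (0.67, adjusted p = 0.00251). The same happened on log2(TPM + 0.1), with Etv5 at −0.48 and Ier3 at 0.72.

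In this state the markers of other cell types also differed in FCS/LIF. The 5 trophectoderm markers summed to 90.3 to 113 TPM in −E−N and to 41.7 to 49.0 TPM in +E+N, with 4 of 5 called higher, the 4 neural markers to 39.5 to 40.7 and 13.4 to 13.6 TPM (2 higher, 1 lower), the 4 primed epiblast markers to 289 to 320 and 226 to 232 TPM (2 higher, 1 lower), the 5 fibroblast markers to 6.14 to 6.56 and 5.59 to 6.07 TPM (4 of 5 called higher), the 5 of mesoderm and primitive streak to 5.61 to 6.74 and 1.78 to 2.52 TPM (2 higher of 4 tested), and the 5 primitive endoderm markers to 23.6 to 25.8 and 9.92 to 14.3 TPM (1 higher). The 6 pluripotency markers summed to 1499 to 1691 TPM in −E−N and to 2511 to 2603 TPM in +E+N, with 5 of 6 called lower, and no marker of these lists was at 0 in both libraries of either state. Their part in the changes of the 10 genes was not tested.

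Within the NrKO line in FCS/LIF (−E−N against −N), 4 of the 10 genes were called, and 10.1% of all genes (6.57% higher, 3.49% lower). Fos rose 2.20-fold (log2 fold change 1.14, SE 0.188, adjusted p = 0.00246) and Dusp6 rose 1.59-fold (0.67, SE 0.113, adjusted p = 0.00282). Spry4 fell 2.17-fold (−1.12, SE 0.0858, adjusted p = 4.74e-05) and Etv4 fell 1.78-fold (−0.83, SE 0.152, adjusted p = 0.00399). Etv5, at −0.57 (adjusted p = 0.000374), was just under the fold limit and passed it without 4 single libraries (−0.65 to −0.59), and Dusp4 was at 0.21 (adjusted p = 0.125). Only the call of Spry4 held whichever library was left out. Etv4 did not pass without −N replicate 1 or either library of −E−N (adjusted p from 0.0102 to 0.0440), Fos without −N replicate 1 or −E−N replicate 2 (0.0152 and 0.0253), and Dusp6 without −E replicate 1 or either library of −E−N (0.0102 to 0.0317), nor, by its size of 0.51, without −N replicate 2.

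The interaction, the change in −E−N beyond the sum of the changes in −E and −N, was called for 0 of the 10 genes in FCS/LIF by edgeR, and for 0.0320% of all genes. Spry4 came closest, at −0.69 (SE 0.119, unadjusted p = 0.000292, adjusted p = 0.140), and 3 of the 10 had an unadjusted p under 0.05. By DESeq2 the interaction of Spry4 was −0.71 and passed (adjusted p = 0.000412). For Etv4 the estimate was 0.0034 (95% CI −0.48 to 0.49).

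**Figure D3:**
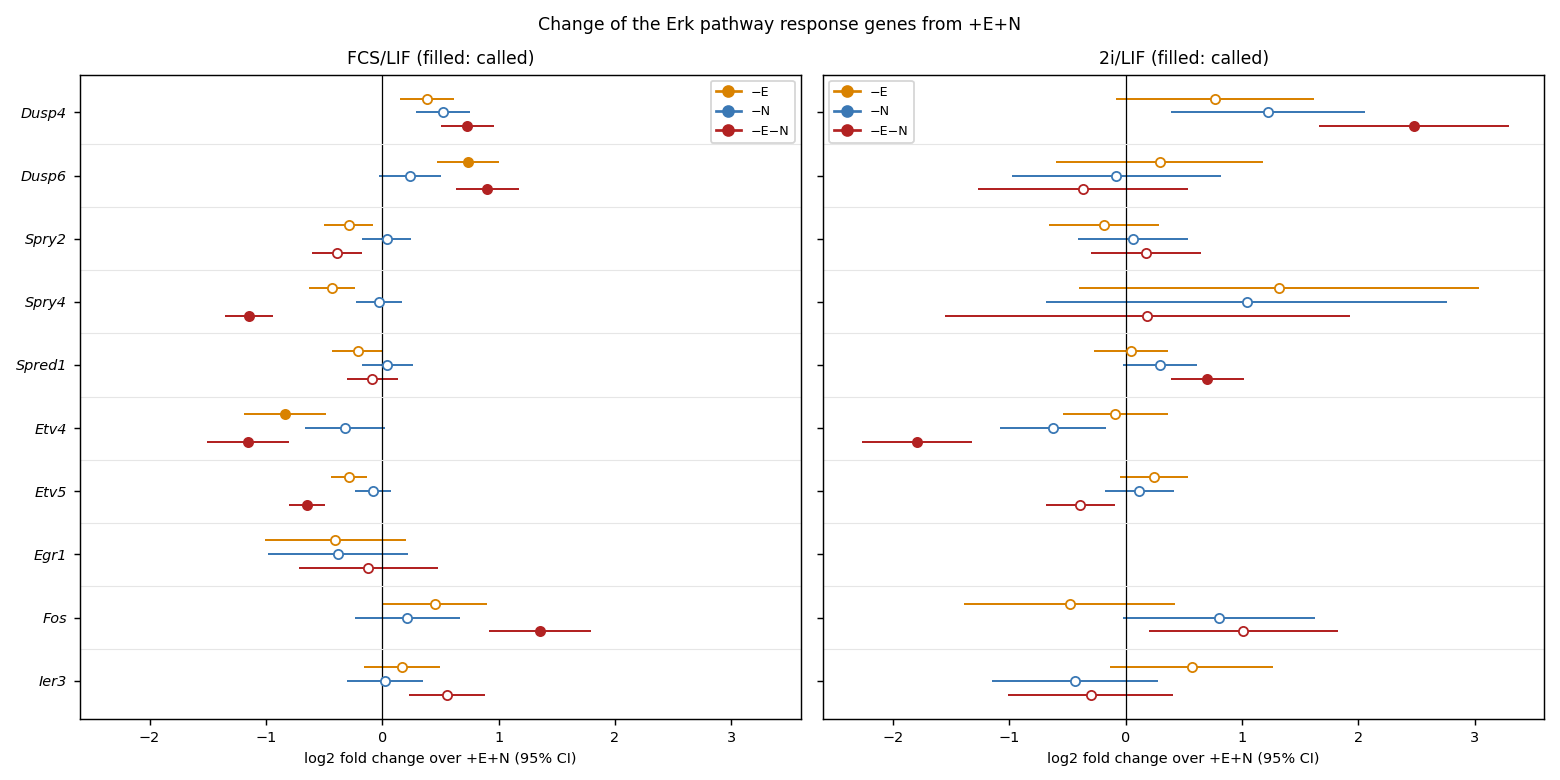
Log2 fold change over +E+N (x axis, 95% confidence intervals) of each Erk pathway response gene in −E, −N and −E−N, in FCS/LIF (left) and 2i/LIF (right); filled points were called. In FCS/LIF the called genes lie between −1.16 and 1.36, and in 2i/LIF between −1.79 and 2.48. Egr1 was not tested in 2i/LIF.

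In 2i/LIF, 9 of the 10 genes had enough counts to be tested within the medium. Egr1 did not, since each state had a library with fewer than 20 counts. In −E against +E+N, 0 of the 9 were called by edgeR and 1.55% of all genes, and 0 of the 9 had an unadjusted p under 0.05. DESeq2 called 0 of them, beside 447 of all 14355 genes. With the replicate number as a block, edgeR called 0 of them, beside 596 of all 14355 genes. Esrrb RNA itself, between 380 and 441 CPM in −E, was not called in this comparison. This count does not measure the protein, whose binding to DNA the study reports as lost in this state. The estimates ranged from −0.48 for Fos to 1.32 for Spry4 (95% CI −0.39 to 3.03).

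In −N against +E+N in 2i/LIF, 0 of the 9 were called, and 3.65% of all genes. Dusp4 was at 1.22 (SE 0.382, unadjusted p = 0.00722, adjusted p = 0.0619) and Etv4 at −0.62 (SE 0.205, unadjusted p = 0.00985, adjusted p = 0.0745), and these 2 were the genes with an unadjusted p under 0.05. DESeq2 called 0 of the 9, beside 860 of all 14355 genes. With the replicate number as a block, Dusp4 passed (log2 fold change 1.22, adjusted p = 0.00467) in a fit that called 7.77% of all genes.

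With both factors missing in 2i/LIF (−E−N against +E+N), 3 of the 9 genes were called, and 18.6% of all genes (9.06% higher, 9.56% lower). Dusp4 rose 5.57-fold (log2 fold change 2.48, SE 0.373, adjusted p = 0.000209), from a mean of 0.688 ± 0.171 to 3.796 ± 1.42 CPM (SD, n = 3), which was still under every library of FCS/LIF. A +E+N library held only 16 to 23 counts of Dusp4. Etv4 fell 3.46-fold (−1.79, SE 0.212, adjusted p = 3.45e-05), from 145 ± 4.10 to 41.4 ± 13.2 CPM. Spred1 rose 1.63-fold (0.70, SE 0.141, adjusted p = 0.00169), from 36.1 ± 1.75 to 58.2 ± 8.14 CPM. The 3 calls held whichever library was left out, but that of Spred1 was lost by limma on log2(TPM + 1) (0.61, adjusted p = 0.0177) and on log2(TPM + 0.1) (0.67, adjusted p = 0.0182).

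The remaining 6 genes were not called in this comparison. Fos was at 1.01 (adjusted p = 0.0441), Etv5 at −0.39 (adjusted p = 0.0329), Dusp6 at −0.37 (95% CI −1.26 to 0.52), Ier3 at −0.30 (95% CI −0.999 to 0.40), Spry2 at 0.18 (95% CI −0.28 to 0.64) and Spry4 at 0.19 (95% CI −1.55 to 1.92). In 2i/LIF Fos passed the count filter only through −E−N, the state where it was highest. Its test there therefore does not stand as support for a rise. The interval of Spry4 is so wide that a change of the size measured in FCS/LIF was not detectable. The median of the 9 was 0.18, beside 0.0102 for all genes. In this state too the markers of other cells differed. The 5 primitive endoderm markers summed to 2.28 to 5.01 TPM in −E−N and 1.63 to 2.80 TPM in +E+N (1 higher and 1 lower of 4 tested). For the 4 neural markers the sums were 9.86 to 11.5 and 7.63 to 9.90 TPM (1 higher of 3 tested). Those of the 5 fibroblast markers were 2.82 to 5.21 and 2.93 to 6.21 TPM (1 higher and 1 lower of 4 tested). The 5 trophectoderm markers summed to 62.7 to 89.2 TPM in −E−N and 32.7 to 42.7 TPM in +E+N (1 higher and 1 lower of 3 tested), the 4 of primed epiblast to 65.8 to 81.4 and 28.7 to 35.98 TPM (1 higher and 1 lower of 3 tested), the 5 of mesoderm and primitive streak to 4.95 to 11.2 and 5.63 to 6.21 TPM (1 higher and 2 lower of 4 tested), and the 6 pluripotency markers to 1324 to 1745 and 2563 to 2971 TPM (4 called lower). Their part was not tested.

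Within the NrKO line in 2i/LIF (−E−N against −N), 1 of the 9 genes was called, and 6.76% of all genes (3.36% lower). Etv4 fell 2.25-fold (log2 fold change −1.17, SE 0.210, adjusted p = 0.00243), but did not pass without −N replicate 2, −N replicate 3 or −E−N replicate 3 (adjusted p from 0.0120 to 0.0129). Dusp4 was at 1.25 (SE 0.345, adjusted p = 0.0235). With the replicate number as a block both passed, Etv4 at −1.17 (adjusted p = 0.000204) and Dusp4 at 1.23 (adjusted p = 0.00100), in a fit that called 11.3% of all genes. The interaction was called for 0 of the 9 by edgeR and for 0.307% of all genes. Etv5 was at −0.75 (adjusted p = 0.0791) and Etv4 at −1.08 (adjusted p = 0.106), and these 2 had an unadjusted p under 0.05. DESeq2 called both (adjusted p = 0.00603 and 0.00894).

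Libraries with 1 number deviated together in 2i/LIF. Over the 10 genes and 4 states, the library numbered 1 was the lowest of its state in 30 of 40 cases, and those numbered 2 and 3 in 5 each. Over all 16147 genes and 4 states it was the lowest in 39.6% of cases. Spry4, Dusp6, Ier3, Spred1 and Dusp4 were lowest there in each of the 4 states, and Etv5 and Egr1 in 1. The labels do not say what the libraries of 1 number share. Without the 4 libraries numbered 1, a choice made after these values were seen, 8 of the 10 genes were called in +E+N between media. In −E−N against +E+N within 2i/LIF 3 were called, and both counts were as with all libraries. Of all genes, 5644 of 16287 and 2686 of 14716 were called there. In −E between media 5 of the 10 were lower and 2 higher, beside 6313 of all 16287 genes. Spry2 (−0.59, adjusted p = 0.0108) and Spred1 (−0.58, under the fold limit) were lost and Ier3 was gained (0.82, adjusted p = 0.000436). In −E−N between media Etv4 was gained (0.84, adjusted p = 0.00147).

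**Figure D4:**
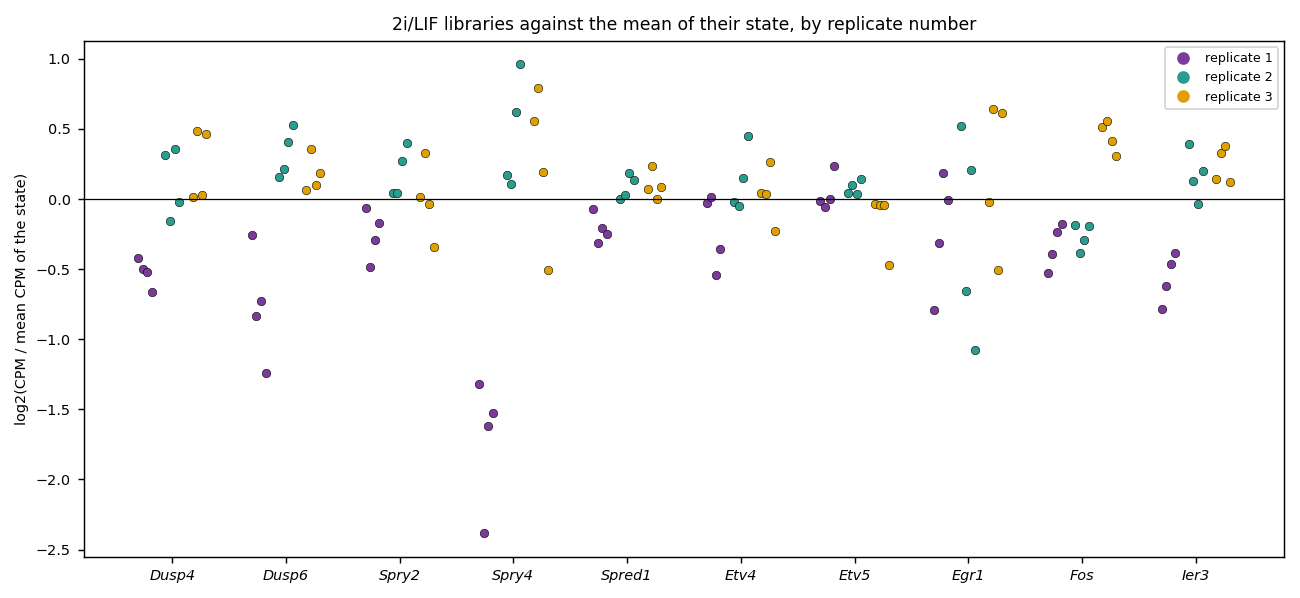
Log2 of the CPM of each 2i/LIF library over the mean of its state (y axis) for the 10 genes, by replicate number (colour), with 1 point for each of the 4 states. The points of replicate 1 lie lowest in 30 of 40 cases, in every state for Dusp4, Dusp6, Spry4, Spred1 and Ier3.

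The change in each state was also compared between the media, by subtracting the 2i/LIF change from the FCS/LIF change, with the 20 libraries fitted together. For −E and for −N, 0 of the 10 genes were called by edgeR (1.06% and 0.743% of all genes were), with 2 and 0 at an unadjusted p under 0.05. DESeq2 called 0 of the 10 in both, beside 532 and 456 of all 16147 genes. Without 2i/LIF −E−N replicate 3, the difference for −E passed for Etv5 (−0.52, adjusted p = 0.00307).

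For −E−N, 1 of the 10 was called, and 13.2% of all genes. Dusp4 rose in both media, by 0.73 in FCS/LIF and by 2.48 in 2i/LIF, and the difference was −1.72 (SE 0.395, adjusted p = 0.00449). By limma it did not pass on log2(TPM + 1) (−0.19, adjusted p = 0.642) or log2(TPM + 0.1) (−1.21, adjusted p = 0.0668). By edgeR it did not pass without either FCS/LIF −E−N library, FCS/LIF +E+N replicate 2, or 2i/LIF +E+N replicate 1 or 3 (adjusted p from 0.0120 to 0.0194). Spred1 was next, at −0.75 (adjusted p = 0.0115), followed by Dusp6 at 1.31 (adjusted p = 0.0752). Spred1 passed without any of 4 single 2i/LIF libraries (adjusted p from 0.00398 to 0.00731), and Etv5, at −0.22, without 2i/LIF −E−N replicate 3 (−0.44, adjusted p = 0.00246). Without the 4 libraries numbered 1 of 2i/LIF, Dusp6 (1.05, adjusted p = 0.00175), Ier3 (1.00, adjusted p = 0.00528) and Spred1 (−0.84, adjusted p = 0.000633) passed beside Dusp4. For Etv4, called lower in −E−N in both media, the difference was 0.67 (95% CI 0.015 to 1.33, adjusted p = 0.133).

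Other genes of the pathway were taken from 3 lists. Of 30 genes of the cascade from ligand to Erk substrates, 5 were called between media in +E+N, 3 higher and 2 lower in 2i/LIF, with a median of 0.11, where 34.7% of all genes were called. Fgfr2, a receptor of Fgf ligands, was lower by 4.92 on the log2 scale (log2 fold change −4.92, adjusted p = 3.39e-10), and Braf by 0.78 (−0.78, adjusted p = 0.000497), while Sos2, a Ras activator, was at 1.23 (adjusted p = 0.00189), Ksr1, a scaffold of the cascade, at 1.07 (adjusted p = 3.67e-06) and the adaptor Shc1 at 0.70 (adjusted p = 1.91e-07). The other 25 did not pass.

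Of 7 other feedback inhibitors tested, 3 were lower in 2i/LIF in +E+N, beside 17.5% of all genes lower and 17.2% higher: Dusp5 (−1.40, adjusted p = 2.5e-05), Dusp2 (−1.38, adjusted p = 0.0029) and Spry1 (−1.03, adjusted p = 0.000577). Of 9 other early response and output genes tested, 6 were lower and 1 higher beside the same shares, with a median of −1.63. Myc (−3.00, adjusted p = 4.08e-09), Fosl1 (−2.87, adjusted p = 1.3e-06) and Jun (−2.74, adjusted p = 2.71e-08) had the largest falls, and Etv1, the third Pea3-type factor, was higher (0.63, adjusted p = 0.000536), as was Etv4.

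**Figure D5:**
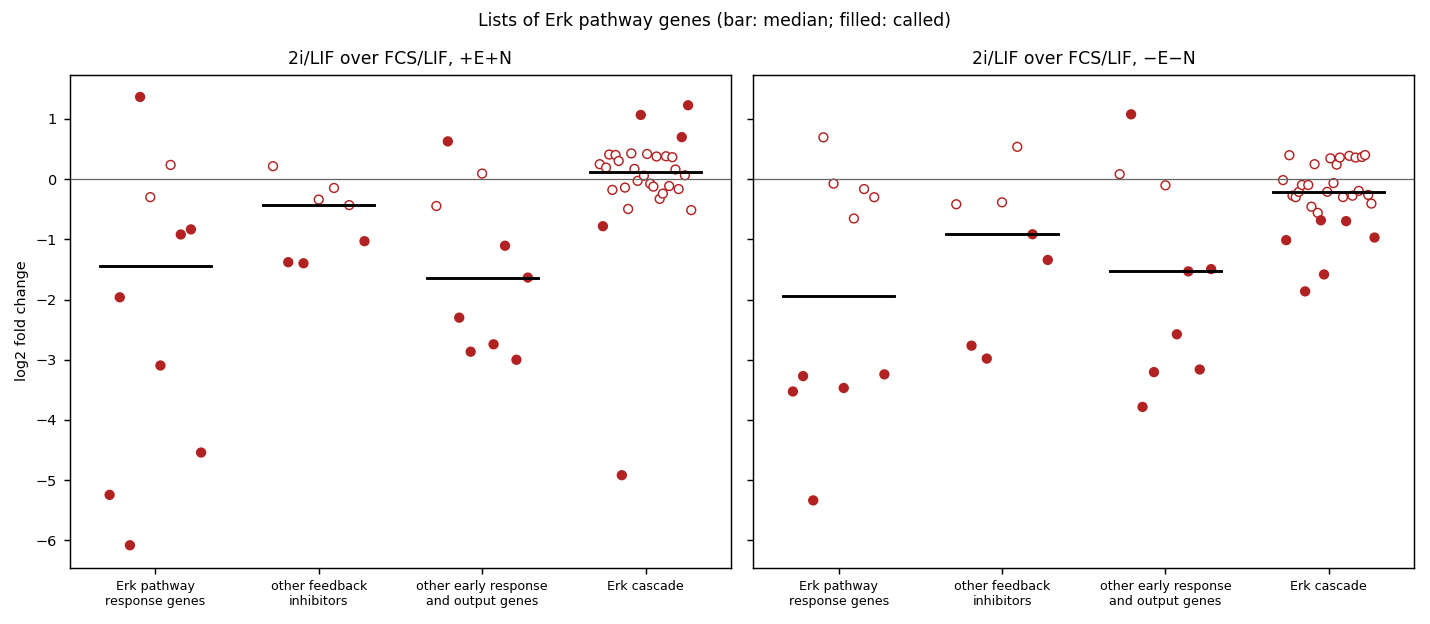
Log2 fold change of 2i/LIF over FCS/LIF (y axis) in +E+N (left) and −E−N (right) for the 10 Erk pathway response genes and 3 other lists, with 1 point per gene tested, filled where called, and bars at the medians. In +E+N the medians are −1.44 for the 10 genes, −0.43 for other feedback inhibitors, −1.63 for other early response and output genes and 0.11 for the cascade.

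In −E−N against +E+N, the ligand Fgf4 fell in both media. It was at 87.1 and 104 CPM in FCS/LIF +E+N and at 24.9 and 30.0 CPM in −E−N (−1.82 on the log2 scale, adjusted p = 1.08e-05). In 2i/LIF it was between 110 and 136 CPM in +E+N and between 16.8 and 28.2 CPM in −E−N (−2.40, adjusted p = 2.01e-06). Of the 30 genes of the cascade, 5 were called in FCS/LIF (3 higher, 2 lower, median 0.11) and 7 in 2i/LIF (3 higher, 4 lower, median −0.01), near the shares of all genes called, 18.8% and 18.6%. In FCS/LIF, Sos2 (1.44, adjusted p = 0.000218), the adaptor Frs2 (0.74, adjusted p = 1.54e-05) and Ksr1 (0.61, adjusted p = 0.0012) rose, and Rps6ka2, a kinase activated by Erk, fell (−0.79, adjusted p = 0.000487). In 2i/LIF, Fgfr2 (3.55, adjusted p = 9.15e-06), Rps6ka3 (0.86, adjusted p = 2.3e-05) and Frs2 (0.82, adjusted p = 2.38e-05) rose, and Ksr1 (−2.01, adjusted p = 5.5e-07) and Rps6ka2 (−1.11, adjusted p = 9.01e-06) fell. Ksr1 was thus called in opposite directions, and the difference between media passed (2.65, adjusted p = 1.51e-07).

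In the same comparison 2 of 7 other feedback inhibitors rose in FCS/LIF, Dusp5 (1.61, adjusted p = 1.33e-05) and Dusp1 (1.04, adjusted p = 4.42e-05), and of the 6 tested in 2i/LIF 0 passed both limits, with 2 at an unadjusted p under 0.05, of which Dusp1 (0.44, adjusted p = 0.00254) was under the fold limit. DESeq2 also called 0 of these 6, beside 2931 of all 14355 genes. Of all genes, 12.4% rose in FCS/LIF and 18.6% were called in 2i/LIF. Of the other early response and output genes, 3 of 9 rose and 1 fell in FCS/LIF by edgeR, beside 12.4% and 6.40% of all genes. In 2i/LIF 2 of 7 rose and 0 fell, beside 9.06% and 9.56% of all genes. DESeq2 called Ccnd1, Jun, Junb and Phlda1 in FCS/LIF, and Jun and Phlda1 in 2i/LIF. Jun, a partner of Fos in the AP-1 factor, rose in both media, from 12.4 and 12.4 CPM to 55.8 and 56.2 CPM in FCS/LIF (2.15, adjusted p = 4.53e-07) and from between 1.46 and 2.12 CPM to between 8.48 and 11.2 CPM in 2i/LIF (2.35, adjusted p = 3.58e-05). Jun was also called in −E (1.11, adjusted p = 4.48e-05) and −N (0.84, adjusted p = 0.00334) in FCS/LIF. Ccnd1, a cyclin that drives cells into S phase, fell in FCS/LIF −E−N (−0.85, adjusted p = 1.33e-05).

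Across the 20 libraries, after the mean of each medium was subtracted, the 10 genes did not vary as one group. The libraries share their medium, line and number, so these correlations of log2 CPM are a description. Dusp4 and Spred1 ran together (Pearson's r = 0.86), as did Etv4 and Etv5 (0.74), Dusp6 and Ier3 (0.73) and Dusp4 and Fos (0.68). The Pea3-type factors ran against Dusp4 and Fos, with r between −0.76 and −0.63. Egr1 had its highest r with Ier3 (0.46), and counts of Egr1 are sparse in 2i/LIF.

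By the same measure, the gene most like Dusp4 among all others was Ube2e1 (r = 0.96), most like Etv4 Aes (0.96) and most like Fos Igdcc3 (0.96). The closest were Rbm27 for Etv5 (0.94), Acvr1b for Spred1 (0.92), Oas3 for Ier3 (0.89), Snapc3 for Spry4 (0.87), Gpc3 for Dusp6 (0.87), Usp36 for Spry2 (0.84) and Sult5a1 for Egr1 (0.81).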

How the data were processed

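RNA was measured by poly-A RNA-seq in 20 libraries. The authors deposited estimated counts per gene, stored as whole numbers, and TPM, made with RSEM. The submitters' processing notes also name STAR and Bowtie2 and the build mm10, and their versions are not given in the sources used here. The 92 spike-in control rows (ERCC), with a total count of 0, were left out of 54238 rows.

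Symbols were read from the row names. The 10 genes and the other lists were chosen with earlier results of these data known. All 10 genes are reported in every comparison. From each of 3 further pathway lists, up to 3 called genes with the largest rise and up to 3 with the largest fall are named. This was done between media in +E+N and for −E−N against +E+N, where Junb and Phlda1 are named without values. The comparison of Ksr1 between media was added after its values were seen.

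Counts were tested with edgeR 4.0.16 (quasi-likelihood, TMM) in R 4.3.3, in fits of the 8 FCS/LIF, the 12 2i/LIF or all 20 libraries. Genes needed 20 counts in every library of at least 1 group, which left 15636, 14355 and 16147 genes. P-values are two-sided and adjusted over all of them, with limits of 0.01 and a 1.5-fold change. Comparisons with +E+N share the +E+N libraries. The scripts were tested on simulated data. Alternatives were DESeq2 1.42.0, its size factors in edgeR, no filter, the replicate number as a block, limma 3.58.1 on log2 TPM with a pseudocount of 1 or 0.1, each library left out, and, added after the values were seen, 2i/LIF without replicate 1. Replicates differed beyond sampling noise (chi-square per degree of freedom from 4.28 to 28.3).

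Pairing was checked by correlating deviations from group means between same-numbered libraries. In 2i/LIF all 3 correlations exceeded 0.1 between +E+N and −E, between +E+N and −N, and for −N against −E−N. Numbers were taken as pairs for these comparisons, on the data alone since the labels name nothing shared. The pairing enters only the alternative fit with a block. The main fits held no block, so the counts first given for 2i/LIF are unpaired. Numbers were not taken as pairs for −E−N with +E+N in 2i/LIF (lowest −0.012). In FCS/LIF 10 of 12 correlations exceeded 0.1 (0.026 to 0.34, the lowest for +E+N with −E). With 2 libraries a state the deviations mirror each other, so both numbers give the same value. Numbers were not taken as pairs in FCS/LIF on this basis. A block by number left the FCS/LIF counts of called genes at 2 (−E), 0 (−N), 6 (−E−N) and 4 (−E−N against −N). Of all 15636 genes, this block called 1296, 305, 3320 and 2176. Python 3.11.15 with pandas 2.3.3 and matplotlib 3.10.9 was used for the rest.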

Additional observations from a re-analysis of the deposited data

Results flagged for a closer look

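The response of Dusp4 to the loss of both factors differed between the media by a test of the difference itself. It rose in −E−N against +E+N in FCS/LIF and in 2i/LIF, and the FCS/LIF change minus the 2i/LIF change was −1.72 on the log2 scale (95% CI −2.55 to −0.88, adjusted p = 0.00449 by edgeR). By limma the difference did not pass, at −0.19 on log2(TPM + 1) (adjusted p = 0.642) and at −1.21 on log2(TPM + 0.1) (adjusted p = 0.0668). In edgeR the call was lost in 5 of 20 fits that each left out 1 library (adjusted p from 0.0120 to 0.0194). In 2i/LIF a library held 16 to 23 counts of Dusp4 in +E+N and 73 to 155 in −E−N, so the 2i/LIF change starts from few counts. Groups of 2 or 3 libraries are too small to be searched for single outlying libraries.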

How the results depend on the processing

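The calls between media kept their direction under the alternatives run. Counts of called genes that moved by over 1.5 times were these. By DESeq2 they were 1 for the FCS/LIF interaction and 2 each for 2i/LIF −E−N against −N, the 2i/LIF interaction and the −E−N response between media. All genes called there were 63 of 15636, 1306 and 303 of 14355, and 2876 of 16147. The main fit called 5, 970, 44 and 2136. With no filter on low counts they were 2 for each interaction, 1 for 2i/LIF −N, and 3, 1 and 6 for the responses of −E, −N and −E−N. All genes called there were 242 of 29656 (FCS/LIF interaction), 212 of 28991 (2i/LIF interaction), 828 of 28991, and 706, 809 and 2973 of 31736. With the replicate block, that is the pairing by number, the called counts were 1 for 2i/LIF −N, 2 for 2i/LIF −E−N against −N, 1 for the 2i/LIF interaction, 1 for the −E response and 4 for the −E−N response. All genes called there were 1115, 1622 and 324 of 14355, and 728 and 3703 of 16147. Of the calls with the block, Fos in 2i/LIF −E−N (1.03, adjusted p = 0.00639), Etv5 in the interaction (−0.77), Spry4 in the −E response (−1.67) and Dusp6 (1.39), Spred1 (−0.74) and Ier3 (0.85) in the −E−N response rest on numbers not shown to pair. Ier3 between media in −E−N passed too (−0.81, adjusted p = 0.00634). The block ended no call. By limma the called counts were 1 for FCS/LIF −E on both scales, 0 for the −E−N response on both, and 0 for 2i/LIF −E−N against −N on log2(TPM + 0.1). All genes called on log2(TPM + 1) were 553 of 15636 and 2225 of 16147. On log2(TPM + 0.1) they were 609 of 15636, 1796 of 16147 and 682 of 14355. With 2i/LIF replicates 2 and 3 only, the −E−N response had 4, beside 2468 of all 16287 genes tested. The cause was not tested.

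With 1 library left out, counts ranged from 0 to 2 for FCS/LIF −E, 1 to 5 for FCS/LIF −E−N against −N, 0 to 2 for 2i/LIF −E−N against −N, 0 to 1 for the −E response and 0 to 2 for the −E−N response.

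Values that changed sign were of genes not called. On log2(TPM + 1) these were Spry4 in FCS/LIF −N (0.030), Spred1 (0.072) and Egr1 (0.053) in FCS/LIF −E−N, Etv4 (−0.14) and Dusp6 (0.028) in the FCS/LIF interaction, Fos (0.058) and Spred1 (−0.035) in 2i/LIF −E, Spry2 (0.082) and Dusp4 (0.28) in the −E response, and Fos (0.038), Spry2 (0.055), Dusp4 (0.15) and Egr1 (−0.19) in the −N response. The others were Etv4 in the FCS/LIF interaction by DESeq2 (−0.017), Dusp6 in 2i/LIF −N without replicate 1 (0.073) and Spry2 in the −N response with the block (0.0071).

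With 1 library left out, values crossed 0 for Spry4 (−0.097 to 0.039), Spred1 (−0.083 to 0.15), Spry2 (−0.066 to 0.13) and Ier3 (−0.10 to 0.13) in FCS/LIF −N. They did for Egr1 in FCS/LIF −E−N against +E+N (−0.38 to 0.21) and against −N (−0.079 to 0.71), and for Etv4 (−0.23 to 0.28), Spred1 (−0.030 to 0.21) and Dusp6 (−0.22 to 0.11) in the FCS/LIF interaction. In 2i/LIF they did for Spred1 in −E (−0.092 to 0.17), Dusp6 (−0.34 to 0.18) and Spry2 (−0.095 to 0.19) in −N, Spry4 (−0.74 to 0.59) and Spry2 (−0.077 to 0.32) in −E−N, and Dusp6 (−0.65 to 0.076), Spry2 (−0.14 to 0.27) and Ier3 (−0.051 to 0.37) in −E−N against −N. Spry2 in the −E (−0.26 to 0.12) and −N (−0.16 to 0.15) responses, Ier3 between media in +E+N (−0.011 to 0.51) and Etv5 between media in −E−N (−0.21 to 0.11) did too. Depth limits Egr1 and Fos in 2i/LIF, at 3 to 34 counts a library, and Dusp4 in 2i/LIF +E+N, at 16 to 23.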
